A study of Homo sapiens with 14 samples.

Results

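The response to SEL120-34A, which blocks CDK8 and CDK19, the kinases of the Mediator complex, was compared between 2 prostate cancer cell lines, LNCaP and 22Rv1. The comparison used the 12 libraries of these lines among the 14 of the series. The groups were LNCaP with DMSO, LNCaP with SEL120-34A, 22Rv1 with DMSO and 22Rv1 with SEL120-34A, each with 3 libraries, after 3 days with 1.5 µM inhibitor or the DMSO vehicle. Each gene was tested for a different response by subtracting its log2 change in 22Rv1 from its log2 change in LNCaP, so that a positive difference is a more positive change in LNCaP. Of 62703 genes counted, 7086 passed the low-count filter and all of these were tested. No other drug, gene deletion or transgene is named for any group. LNCaP responds to the antiandrogen enzalutamide, and 22Rv1 is resistant to it. The 2 lines also differ in their origin and genome, so a difference between them cannot be assigned to 1 of these properties, and each is represented by 1 culture line. PC3, a line that grows without androgen, had 1 library per arm and was not part of the comparison.

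The Mediator complex links transcription factors bound to DNA with RNA polymerase II. Its kinase module holds CDK8 or the closely related CDK19 together with cyclin C, MED12 and MED13, and it can raise or lower the output of a gene depending on the factors bound there. The set of genes that an inhibitor of these kinases moves is therefore known to vary with cell type.

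Total counts ranged from 246063 to 777207 per library, and the 3 treated 22Rv1 libraries were all shallower than their controls. The share of counts from mitochondrial genes was 13.9% to 17.3% in LNCaP DMSO and 16.5% to 23.3% in LNCaP SEL120-34A, against 7.6% to 9.82% and 9.52% to 13.1% in 22Rv1. Removal of the mitochondrial genes gave 52 calls for the difference between lines, of which 50 were shared with the full set and 2 were not, and KIF22 and DDIT4 lost theirs. KLK3, which encodes prostate-specific antigen, was at 1218 ± 167 CPM in LNCaP DMSO and 20.4 ± 9.97 CPM in 22Rv1 DMSO (mean ± SD, n = 3, in CPM, counts scaled by library size and TMM factor), which served as the check of the line labels. The epithelial markers EPCAM, KRT8, KRT18 and CDH1 were detected in every library. The 24 markers of PC3 cells summed to 62.8 to 130.1 CPM in LNCaP and to 119.8 to 175.97 CPM in 22Rv1 libraries, against 11589 and 12187 CPM in the PC3 libraries. These are levels in bulk RNA, in which fewer cells of one kind and less RNA per cell cannot be told apart.

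The response differed between the lines for 52 of the 7086 genes (0.734%; adjusted p under 0.05, edgeR quasi-likelihood test). Of these, 19 (0.268%) had the more positive change in LNCaP and 33 (0.466%) the more positive change in 22Rv1. In the separate lines, 196 genes (2.77%) changed in LNCaP and 404 (5.70%) in 22Rv1. In LNCaP 141 rose (1.99%) and 55 fell (0.776%), and in 22Rv1 294 rose (4.15%) and 110 fell (1.55%). A change called in 1 line was seldom shown to be larger there. Of 159 genes called in LNCaP and not in 22Rv1, 16 passed the test of the difference, and of 367 called in 22Rv1 and not in LNCaP, 27 passed it. Of the 37 genes called in both lines, 5 passed it. The count of 52 fell to 24 without LNCaP SEL120-34A library 1 and to 25 when all libraries were thinned to 246063 counts.

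**Figure D1:**
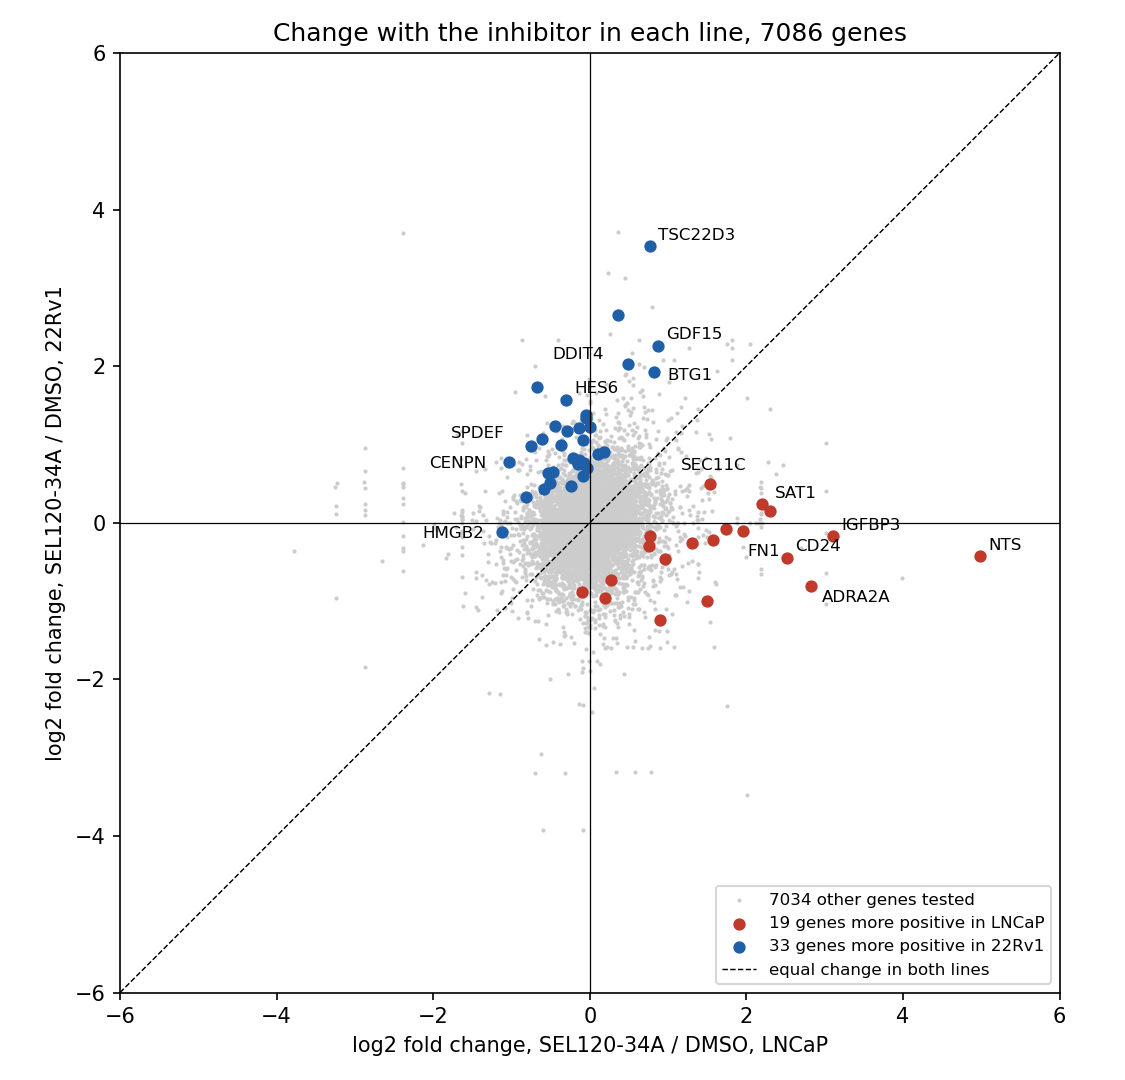
Each point is a gene, with its log2 fold change with SEL120-34A in LNCaP on the x axis and in 22Rv1 on the y axis. The 19 genes that responded more positively in LNCaP (red) lie to the lower right of the dashed line of equal change, the 33 that did so in 22Rv1 (blue) to its upper left, and all other genes tested are grey.

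The 52 genes fell into classes by their calls in each line. In LNCaP alone 16 were called, of which 14 rose and 2 fell. Another 27 were called in 22Rv1 alone, of which 24 rose and 3 fell. Both lines gave a call for 5 genes, with opposite signs for 2 and the same sign for 3. The remaining 4 were called in neither line. The 2 changes had opposite signs for 39 of the 52 genes, against 43.1% of all genes tested, and the smaller of the 2 changes was often within its error. The 95% interval in the line without a call included 0 for 15 of the 16 LNCaP genes and for 24 of the 27 genes of 22Rv1. Treated and control libraries did not overlap in LNCaP for 31 of the 52 genes, against 19.4% of all genes tested, and in 22Rv1 for 37, against 23.0%. They separated in both lines in opposite directions for 12 of the 52 genes, against 1.31% of all genes tested. These shares use the same libraries as the test and are given as a description.

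The largest difference among genes with a mean of at least 20 counts was that of ADRA2A (ENSG00000150594.7, chromosome 10, 111077029 to 111080907, plus strand), which encodes the alpha-2A adrenergic receptor, a receptor for adrenaline and noradrenaline that couples to inhibitory G proteins. In LNCaP it was at 137, 70.7 and 88.1 CPM with DMSO and at 873, 759 and 513 CPM with SEL120-34A. The 22Rv1 libraries held 108, 114 and 103 CPM with DMSO and 60.6, 51.5 and 68.5 CPM with SEL120-34A. The treated libraries thus lay above all controls in LNCaP and below all controls in 22Rv1. The log2 change was 2.83 ± 0.18 (SE) in LNCaP, a rise of 7.09-fold (adjusted p = 1.05e-14), and -0.80 ± 0.26 in 22Rv1, which did not pass (adjusted p = 0.0605). The difference was 3.63 ± 0.31 (adjusted p = 1.33e-10).

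Among the genes tested, the neighbour of ADRA2A on chromosome 10 was SHOC2, which encodes a scaffold protein of the RAS to RAF pathway. It ends 59722 bases before ADRA2A starts and lies on the same strand. SHOC2 fell outside the naming rule by its mean count and was chosen after its values were seen. It was at 29.6, 26.2 and 25.2 CPM in LNCaP DMSO, 97.5, 67.8 and 67.6 CPM in LNCaP SEL120-34A, 15.7, 16.8 and 23.9 CPM in 22Rv1 DMSO and 13.8, 12.9 and 2.85 CPM in 22Rv1 SEL120-34A. Its libraries separated in the same directions as those of ADRA2A, with a log2 change of 1.50 ± 0.29 in LNCaP (adjusted p = 0.00115) and -1.002 ± 0.50 in 22Rv1 (adjusted p = 0.269). The separation in 22Rv1 rested on 8, 9 and 20 raw counts with DMSO and 5, 3 and 1 with SEL120-34A, which is near the floor of 3 counts. The difference of 2.501 ± 0.57 (adjusted p = 0.0237) was no longer called after thinning, without LNCaP SEL120-34A library 1 or without 22Rv1 DMSO or SEL120-34A library 3, with an adjusted p of up to 0.105 over the alternatives.

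The 250 bases before the start of both genes are shown because the treated libraries of both neighbours lay above all controls in LNCaP and below all controls in 22Rv1, where neither change passed and the counts of SHOC2 were few. They are RefSeq sequences on GRCh38.p14, plus strand, at chr10:111076779-111077028 for ADRA2A and chr10:110919120-110919369 for SHOC2. Capitals mark TATAAA, the core of a TATA box, searched on both strands. It was present before ADRA2A and not before SHOC2, and in 10.7% of the 35116 RefSeq windows of this length. Of the 47 called genes found in this table, 7 held it in at least 1 window (14.9%, against 13.05% of all 27305 genes), namely ADRA2A, BTG1, GCLC, GDF15, HES6, MT2A and TSC22D3. The search was made after the genes were known and is a description.
ADRA2A: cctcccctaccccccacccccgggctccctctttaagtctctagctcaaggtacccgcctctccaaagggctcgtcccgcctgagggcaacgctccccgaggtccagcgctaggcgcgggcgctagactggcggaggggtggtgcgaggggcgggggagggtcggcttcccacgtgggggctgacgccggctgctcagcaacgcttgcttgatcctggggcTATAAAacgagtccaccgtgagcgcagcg
SHOC2: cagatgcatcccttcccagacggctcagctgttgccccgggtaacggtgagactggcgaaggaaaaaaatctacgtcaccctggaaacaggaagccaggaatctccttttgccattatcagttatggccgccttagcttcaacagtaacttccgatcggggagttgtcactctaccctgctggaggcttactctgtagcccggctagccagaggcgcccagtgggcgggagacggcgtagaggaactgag

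IGFBP3, FN1, CD24 and ALCAM, which encode secreted or surface proteins, rose in LNCaP alone. IGFBP3 (ENSG00000146674.16, chromosome 7, 45912245 to 45921874, minus strand) encodes a secreted protein that binds insulin-like growth factors. It was at 101, 34 and 16.8 CPM in LNCaP DMSO and 561, 436 and 365 CPM in LNCaP SEL120-34A. In 22Rv1 the levels were 41.2, 39.3 and 35.8 CPM with DMSO and 35.8, 34.3 and 31.4 CPM with SEL120-34A, ranges that touched. Its LNCaP controls were widely spread, but even the highest stood well below the treated libraries. The log2 change was 3.10 ± 0.26 in LNCaP, a rise of 8.59-fold (adjusted p = 1.35e-11), and -0.17 ± 0.44 in 22Rv1 (adjusted p = 0.886), a difference of 3.27 ± 0.50 (adjusted p = 0.000129).

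FN1 (ENSG00000115414.21, chromosome 2, 215360440 to 215436073, minus strand) encodes fibronectin, a glycoprotein of the extracellular matrix. LNCaP DMSO libraries held 175, 131 and 159 CPM and LNCaP SEL120-34A libraries 667, 783 and 372 CPM. Its levels in 22Rv1 were 222, 397 and 202 CPM with DMSO and 254, 240.4 and 248 CPM with SEL120-34A, with the treated libraries inside the range of the controls. The change was 1.96 ± 0.21 in LNCaP (adjusted p = 9.21e-09) and -0.11 ± 0.22 in 22Rv1 (adjusted p = 0.845), and the difference was 2.07 ± 0.30 (adjusted p = 5.07e-05).

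CD24 (ENSG00000272398.6, chromosome 6, 106969831 to 106975627, minus strand), a heavily glycosylated surface protein anchored by a lipid, started from a low level in LNCaP. It was at 4.23, 13.1 and 14 CPM in LNCaP DMSO and 78, 54.2 and 46.5 CPM in LNCaP SEL120-34A. These values rested on 3, 5 and 10 raw counts with DMSO, near the floor of 3 counts, and 20, 20 and 22 with SEL120-34A. For 22Rv1 the values were 70.7, 63.6 and 76.3 CPM with DMSO and 57.9, 38.6 and 54.2 CPM with SEL120-34A. Treated LNCaP cells thus reached the range of 22Rv1 cells. The difference of 2.96 ± 0.46 (adjusted p = 0.000129) came from a rise of 2.51 ± 0.37 in LNCaP (adjusted p = 1.53e-05) beside -0.44 ± 0.27 in 22Rv1 (adjusted p = 0.394). ALCAM, an adhesion molecule of the immunoglobulin superfamily, had 29.5 ± 6.22 and 67.7 ± 16.8 CPM in LNCaP DMSO and SEL120-34A and 61.6 ± 3.59 and 49.9 ± 11.1 CPM in 22Rv1. Its difference was 1.57 ± 0.38 (adjusted p = 0.0336). MT2A, a metallothionein that binds zinc and copper and is known to respond to glucocorticoids, showed the same arrangement, with 21.4 ± 4.03 and 62 ± 13.8 CPM in LNCaP, 64.2 ± 8.92 and 55.3 ± 19.2 CPM in 22Rv1 and a difference of 1.79 ± 0.41 (adjusted p = 0.0237). For CD24, ALCAM and MT2A the LNCaP control level was below that of 22Rv1 and the treated level was near it.

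SAT1 (ENSG00000130066.17, chromosome X, 23783173 to 23786210, plus strand) encodes the acetyltransferase that starts the breakdown of the polyamines spermidine and spermine. It was at 78.9, 73.3 and 54.5 CPM in LNCaP DMSO and 413, 290.0 and 243 CPM in LNCaP SEL120-34A. Levels in 22Rv1 cells were 49.1, 18.7 and 22.7 CPM with DMSO and 33.1, 34.3 and 34.2 CPM with SEL120-34A. All treated LNCaP libraries were above all others, and the treated 22Rv1 libraries lay within the range of their controls. The change was 2.20 ± 0.21 in LNCaP (adjusted p = 6.23e-10) and 0.23 ± 0.37 in 22Rv1 (adjusted p = 0.797). The difference of 1.97 ± 0.42 (adjusted p = 0.0129) was 1.54 (adjusted p = 0.123) without 22Rv1 DMSO library 1 and 1.71 (adjusted p = 0.182) after thinning to equal totals.

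Other genes whose rise was called in LNCaP alone had smaller or less even differences. ISYNA1, the enzyme that makes inositol phosphate from glucose 6-phosphate, was at 5.63, 7.85 and 5.59 CPM in LNCaP DMSO and 35.1, 48.8 and 12.7 CPM in LNCaP SEL120-34A, against 196 ± 31.8 and 218 ± 38.3 CPM in 22Rv1. Its level in treated LNCaP cells remained far below that of 22Rv1, and the difference was 2.15 ± 0.52 (adjusted p = 0.0336). The LNCaP values rested on 4, 3 and 4 raw counts with DMSO and 9, 18 and 6 with SEL120-34A. ISYNA1 met the naming rule through its 22Rv1 libraries, which held 61 to 160 counts. In CPM its mean rose by a similar amount in both lines, 25.8 in LNCaP and 22.5 in 22Rv1. APLP2, a membrane protein of the amyloid precursor family, went from 88.3 ± 16.9 to 176 ± 52.8 CPM in LNCaP and from 95.9 ± 33.7 to 66.9 ± 11.3 CPM in 22Rv1, with a difference of 1.43 ± 0.34 (adjusted p = 0.0328). ST3GAL1, a sialyltransferase of the Golgi, had a difference of 1.05 ± 0.27 (adjusted p = 0.0478) and TXNL1, a thioredoxin-like protein, one of 0.93 ± 0.22 (adjusted p = 0.0317). The calls of ISYNA1, ALCAM, APLP2, MT2A, ST3GAL1 and TXNL1 were each lost in 7 to 13 of the alternative fits in which they were tested.

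**Figure D2:**
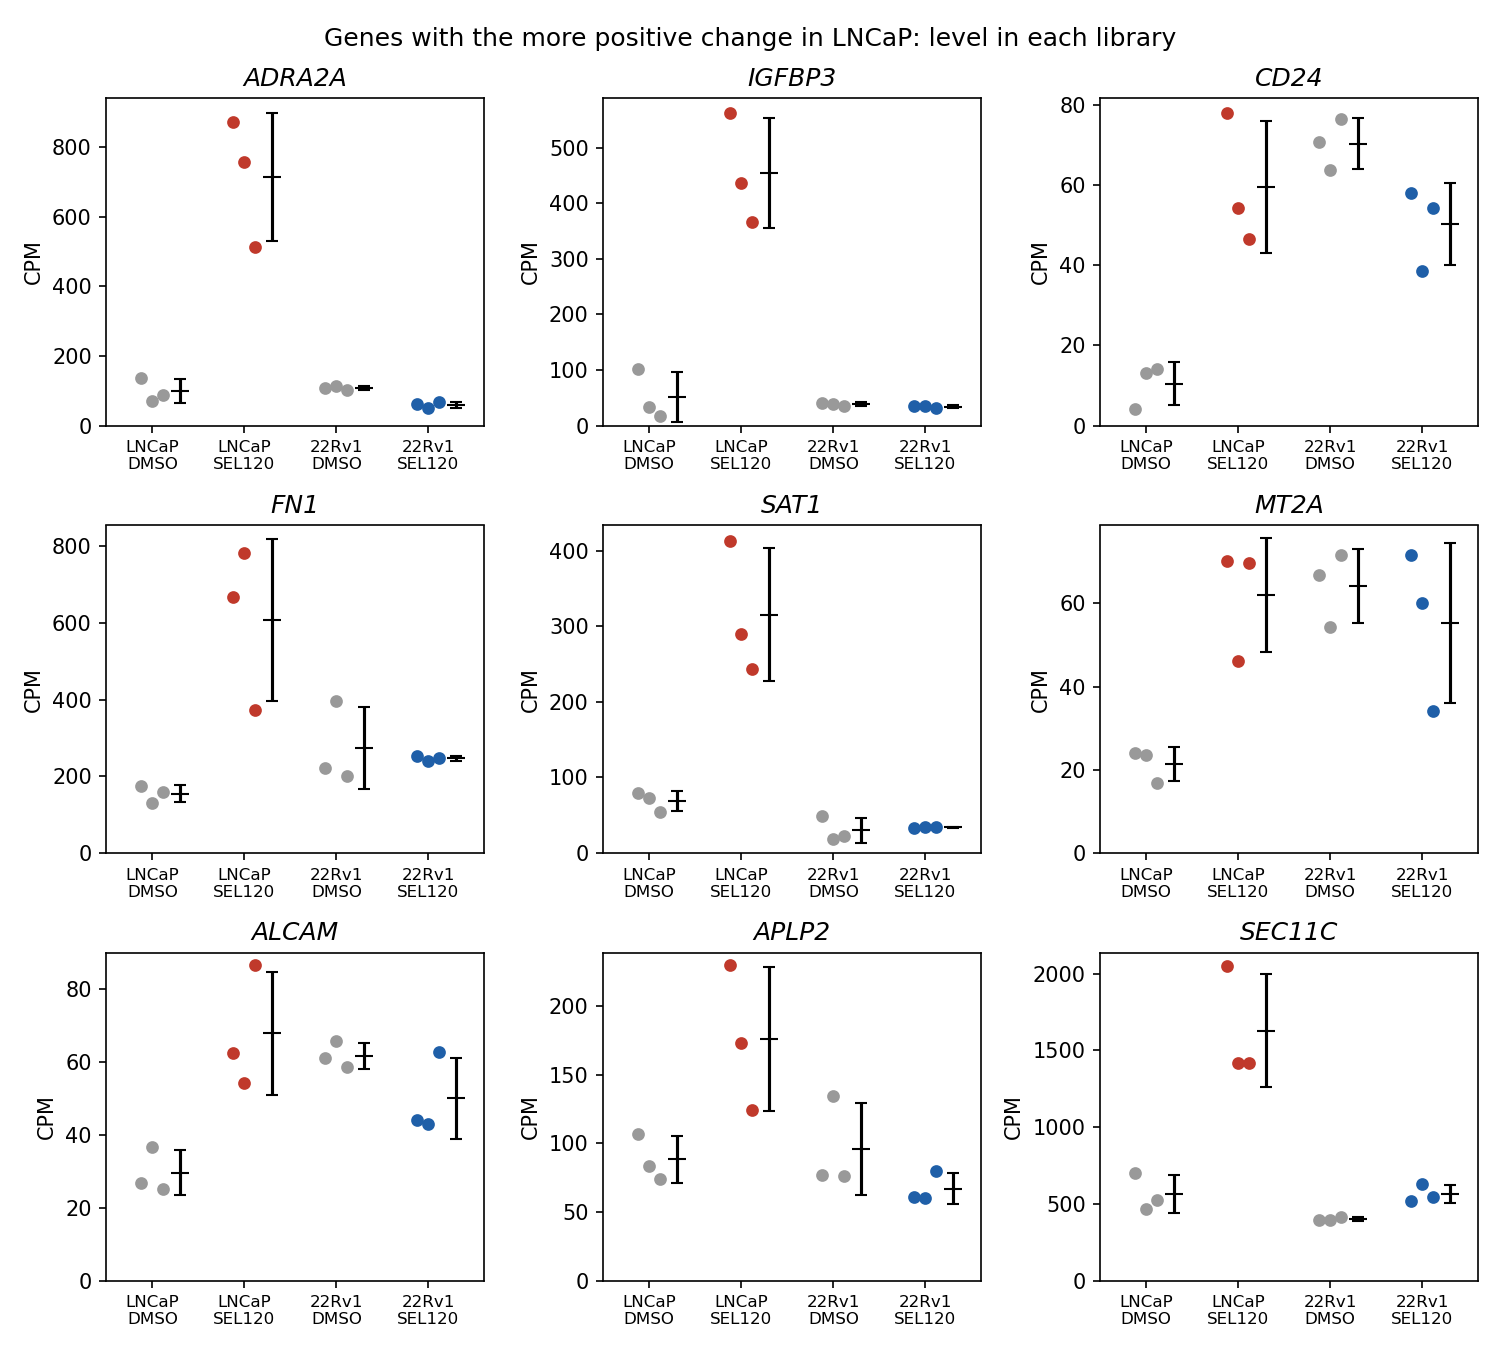
CPM on the y axis (linear, from 0) in each of the 12 libraries for 9 genes with the more positive change in LNCaP, with grey points for DMSO, red for LNCaP SEL120-34A and blue for 22Rv1 SEL120-34A. Black bars are the mean ± SD (n = 3). ADRA2A, IGFBP3, FN1 and SAT1 stood apart in treated LNCaP libraries, while CD24, MT2A and ALCAM reached about the level of 22Rv1.

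HMGB2 and KIF22 fell in LNCaP alone. HMGB2 (ENSG00000164104.12, chromosome 4, 173331376 to 173334432, minus strand), a chromatin protein that is abundant in dividing cells, was at 370.5, 377 and 391 CPM in LNCaP DMSO and 113, 155 and 224 CPM in LNCaP SEL120-34A. In 22Rv1 it was at 404, 303 and 364 CPM with DMSO and 372, 283 and 314 CPM with SEL120-34A, which overlapped. The change was -1.13 ± 0.17 in LNCaP (adjusted p = 2.36e-05) and -0.12 ± 0.16 in 22Rv1 (adjusted p = 0.745). The difference of -1.01 ± 0.23 (adjusted p = 0.0251) was -0.83 without LNCaP SEL120-34A library 1 (adjusted p = 0.111) and was also lost without LNCaP DMSO library 3, LNCaP SEL120-34A library 2, 22Rv1 DMSO library 2 or 22Rv1 SEL120-34A library 1, with an adjusted p of up to 0.125. KIF22, a kinesin that binds chromosomes, was outside the naming rule and had a difference of -1.14 ± 0.29 (adjusted p = 0.045).

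In 22Rv1 the largest difference was that of TSC22D3 (ENSG00000157514.18, chromosome X, 107713221 to 107777342, minus strand), known as GILZ, a leucine zipper protein that is induced by glucocorticoids. It was at 40.9, 65.5 and 137 CPM in LNCaP DMSO and 113, 136 and 158 CPM in LNCaP SEL120-34A. The 22Rv1 libraries held 11.8, 13.1 and 5.96 CPM with DMSO and 90.9, 219 and 57 CPM with SEL120-34A. The groups overlapped in LNCaP and were apart in 22Rv1, although the treated 22Rv1 libraries were themselves far apart. The change was 0.76 ± 0.30 in LNCaP (adjusted p = 0.21) and 3.54 ± 0.46 in 22Rv1 (adjusted p = 1.04e-06). The difference of -2.77 ± 0.57 (adjusted p = 0.00693) became -2.03 without LNCaP DMSO library 3 (adjusted p = 0.0798), -2.38 without 22Rv1 DMSO library 3 (adjusted p = 0.0576) and -2.18 without 22Rv1 SEL120-34A library 2 (adjusted p = 0.0645). It was also lost by the DESeq2 Wald test (adjusted p = 0.0763) and by limma-trend (adjusted p = 0.0636). DDIT4, another gene known to respond to glucocorticoids and to stress, which encodes an inhibitor of mTORC1, was at 99.1 ± 39.1 and 129.8 ± 46.7 CPM in LNCaP and 24.8 ± 2.9 and 103 ± 24.6 CPM in 22Rv1. Its difference of -1.55 ± 0.40 lay at the threshold (adjusted p = 0.0494).

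AP3S1 and TEX264 rose in 22Rv1 with no shift in LNCaP beyond the spread of its libraries. AP3S1 (ENSG00000177879.17, chromosome 5, 115841592 to 115914081, plus strand) encodes a subunit of the AP-3 adaptor, which sorts membrane proteins to lysosomes. It was at 109.9, 107 and 133 CPM in LNCaP DMSO and 70.2, 130.1 and 122 CPM in LNCaP SEL120-34A. Its levels in 22Rv1 were 355, 314 and 312 CPM with DMSO and 854, 1004 and 679 CPM with SEL120-34A. The change was -0.05 ± 0.20 in LNCaP and 1.38 ± 0.15 in 22Rv1 (adjusted p = 8.19e-09), and the difference was -1.43 ± 0.25 (adjusted p = 0.00102). TEX264 (ENSG00000164081.13, chromosome 3, 51662693 to 51704323, plus strand), a receptor for autophagy of the endoplasmic reticulum, was at 146, 202 and 157 CPM in LNCaP DMSO and 172, 157 and 158 CPM in LNCaP SEL120-34A. For 22Rv1 the values were 355, 331 and 416 CPM with DMSO and 921, 936 and 716 CPM with SEL120-34A. Its difference was -1.22 ± 0.22 (adjusted p = 0.00177). Both genes were already higher in 22Rv1 than in LNCaP before treatment, and the treated 22Rv1 libraries were the highest of all.

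CD9 and CLDN4 had the opposite starting point. CD9 (ENSG00000010278.15, chromosome 12, 6199715 to 6238271, plus strand), a tetraspanin of the cell surface, was at 775, 741 and 646 CPM in LNCaP DMSO and 678, 626 and 617 CPM in LNCaP SEL120-34A. Levels in 22Rv1 cells were 298, 298 and 303 CPM with DMSO and 631, 846 and 613 CPM with SEL120-34A. Treated 22Rv1 cells thus came near the levels that LNCaP held with and without inhibitor. The library at 846 CPM was above all LNCaP libraries and that at 613 CPM just below them. The change was -0.14 ± 0.13 in LNCaP and 1.22 ± 0.14 in 22Rv1 (adjusted p = 3.2e-08), and the difference was -1.36 ± 0.19 (adjusted p = 2.96e-05). CLDN4 (ENSG00000189143.10, chromosome 7, 73799542 to 73832690, plus strand), a claudin of tight junctions, was at 451, 448 and 775 CPM in LNCaP DMSO and 448, 339 and 788 CPM in LNCaP SEL120-34A. In 22Rv1 it was at 338, 221 and 261 CPM with DMSO and 689, 914 and 479 CPM with SEL120-34A. Library 3 was the highest in both LNCaP groups and the lowest of the treated 22Rv1 libraries. The difference of -1.39 ± 0.30 (adjusted p = 0.0129) was -1.04 without LNCaP DMSO library 3 (adjusted p = 0.101), and was also lost without LNCaP SEL120-34A library 1 or 2 or 22Rv1 SEL120-34A library 2. The DESeq2 Wald test (adjusted p = 0.213), limma-trend (adjusted p = 0.0591) and a filter of at least 10 counts in every library (adjusted p = 0.0551) did not call it either.

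HES6, ALDH3A2, PRR15L and RPL7AP30 also rose in 22Rv1 alone. HES6, a basic helix-loop-helix factor, was at 35.2, 55 and 79.7 CPM in LNCaP DMSO and 35.1, 43.4 and 52.8 CPM in LNCaP SEL120-34A. The 22Rv1 libraries held 29.4, 20.6 and 28.6 CPM with DMSO and 93.7, 98.7 and 48.5 CPM with SEL120-34A. The difference was -1.88 ± 0.44 (adjusted p = 0.0265), which was -1.45 without LNCaP DMSO library 3 (adjusted p = 0.173) and lost in 8 of 21 alternatives. ALDH3A2, an enzyme that oxidises fatty aldehydes, was at 81.3 ± 10.1 and 63.4 ± 20.6 CPM in LNCaP and 154 ± 2.71 and 346 ± 30.6 CPM in 22Rv1, with a difference of -1.46 ± 0.27 (adjusted p = 0.0021). PRR15L had a difference of -1.68 ± 0.39 (adjusted p = 0.0274). RPL7AP30 is annotated as a pseudogene of a ribosomal protein and may have taken reads of its parent gene, so its difference of -1.68 ± 0.32 (adjusted p = 0.00262) is uncertain.

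**Figure D3:**
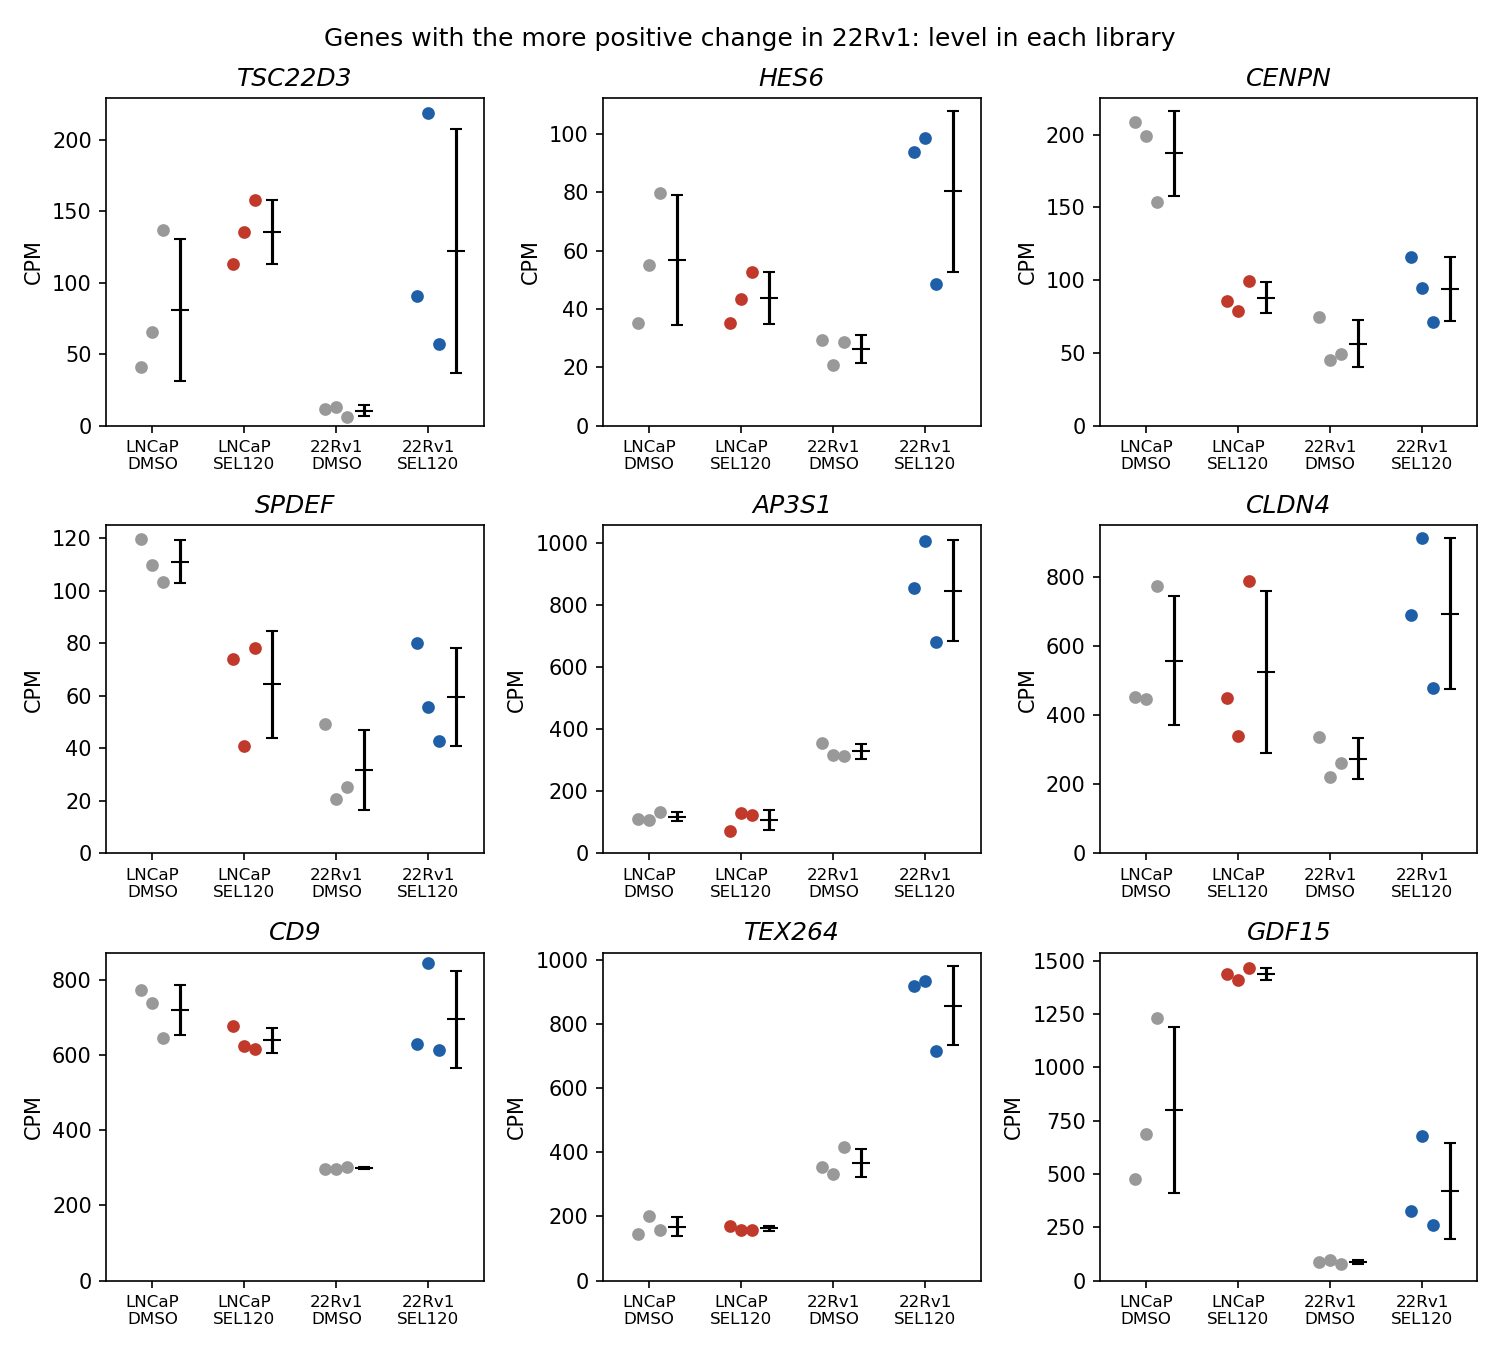
CPM on the y axis (linear, from 0) in each of the 12 libraries for 9 genes with the more positive change in 22Rv1, with grey points for DMSO, red for LNCaP SEL120-34A, blue for 22Rv1 SEL120-34A and black bars for the mean ± SD (n = 3). AP3S1 and TEX264 were highest in treated 22Rv1 libraries, and CD9 rose there to about the level of LNCaP. CENPN and SPDEF were lower in treated LNCaP and higher in treated 22Rv1 libraries on average.

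Genes that fell in 22Rv1 alone were HSD17B4, ATP2A2 and HSP90AA1. HSD17B4, a peroxisomal enzyme that acts on fatty acids and on steroids, was at 163 ± 22.5 and 184 ± 40.1 CPM in LNCaP and 97.4 ± 6.59 and 49 ± 11.9 CPM in 22Rv1. Its difference was 1.16 ± 0.30 (adjusted p = 0.0499), and it was lost in 14 of 23 alternatives. ATP2A2, the calcium pump of the endoplasmic reticulum, fell by 0.73 ± 0.17 on the log2 scale in 22Rv1 (adjusted p = 0.00551), with a difference of 1.01 ± 0.25 (adjusted p = 0.0362). HSP90AA1, a chaperone induced by heat and other stress, was outside the naming rule and had a difference of 0.78 ± 0.20 (adjusted p = 0.0461).

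Opposite changes called in both lines were found for CENPN and RPS4Y1. CENPN (ENSG00000166451.14, chromosome 16, 81006552 to 81033114, plus strand) encodes a protein of the centromere that recognises the CENP-A nucleosome. It was at 208, 199 and 154 CPM in LNCaP DMSO and 85.8, 78.6 and 99.3 CPM in LNCaP SEL120-34A. Its levels in 22Rv1 were 74.6, 44.9 and 48.9 CPM with DMSO and 116, 94.4 and 71.3 CPM with SEL120-34A. The groups were apart in LNCaP and overlapped in 22Rv1, where 1 treated library was below the highest control. It fell by 1.04 ± 0.20 in LNCaP on the log2 scale (adjusted p = 0.00118) and rose by 0.78 ± 0.24 in 22Rv1 (adjusted p = 0.0449), with a difference of -1.81 ± 0.31 (adjusted p = 0.00102). RPS4Y1, a ribosomal protein gene with a close copy on another chromosome, had a log2 change of -0.59 ± 0.15 in LNCaP (adjusted p = 0.0221) and 0.43 ± 0.13 in 22Rv1 (adjusted p = 0.0472), and the authors' counting could have divided reads between the copies.

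CMC2, which encodes a mitochondrial protein of cytochrome c oxidase assembly, lies head to head with CENPN on chromosome 16 and overlaps it in the annotation. It was at 88.7, 78.5 and 71.3 CPM in LNCaP DMSO, 50.7, 59.6 and 67.6 CPM in LNCaP SEL120-34A, 43.2, 46.8 and 48.9 CPM in 22Rv1 DMSO and 77.2, 107 and 97 CPM in 22Rv1 SEL120-34A. The treated libraries were below all controls in LNCaP and above all controls in 22Rv1. The log2 change was -0.36 ± 0.23 in LNCaP (adjusted p = 0.51) and 1.00 ± 0.23 in 22Rv1 (adjusted p = 0.00578), and the difference was -1.36 ± 0.32 (adjusted p = 0.0328). It was lost in 11 of 22 alternatives, whereas CENPN was called in all 23. The strand setting of the authors' counting was not given in the sources used here, so reads from the stretch both genes share could not be assigned with certainty. That stretch runs from 81006552 to 81020270 and holds the annotated 3′ end of neither gene, while the libraries count 3′ ends of transcripts. How many counts came from it was not tested.

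The 250 bases before the RefSeq starts of this pair are shown because the windows overlap. They are on GRCh38.p14 at chr16:81006886-81007135, minus strand, for CMC2 and chr16:81006964-81007213, plus strand, for CENPN. The starts are 329 bases apart and the windows share 172 bases, read in opposite directions. Capitals mark CCAAT on either strand, the core of the site of the factor NF-Y, which occurred in 32.0% of the 35116 windows. It was found just before the start of CENPN and not in this window of CMC2. A second RefSeq window of CMC2, at chr16:80997677-80997926 and not shown, did hold it. Of the 47 called genes found in RefSeq, 27 held it in at least 1 window (57.4%, against 37.0% of all 27305 genes). These 27305 genes were not limited to the 7086 tested, so the shares are not set against expressed genes. CCAAT did not stand alone. The sequence GGGCGG was found for 39 of the 47 (83.0%, against 46.2%) and AGAACA for 2 (4.26%, against 14.8%). These searches too were made after the genes were known. A match, or the lack of one, describes these letters only.
CMC2: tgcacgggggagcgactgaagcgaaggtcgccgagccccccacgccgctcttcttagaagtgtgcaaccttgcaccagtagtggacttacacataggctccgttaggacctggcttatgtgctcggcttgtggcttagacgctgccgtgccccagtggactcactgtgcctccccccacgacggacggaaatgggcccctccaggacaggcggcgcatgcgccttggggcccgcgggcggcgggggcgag
CENPN: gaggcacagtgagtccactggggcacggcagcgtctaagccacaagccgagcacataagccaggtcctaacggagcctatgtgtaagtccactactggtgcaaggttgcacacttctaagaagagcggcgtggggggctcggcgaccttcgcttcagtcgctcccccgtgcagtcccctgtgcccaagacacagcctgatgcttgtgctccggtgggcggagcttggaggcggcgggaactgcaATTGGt

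For SPDEF, TPM1, SPCS3 and RAB26 the difference passed with neither line called alone. SPDEF (ENSG00000124664.11, chromosome 6, 34537802 to 34556333, minus strand), an ETS transcription factor of prostate epithelium, was at 119.7, 110.0 and 103 CPM in LNCaP DMSO and 74.1, 40.7 and 78.1 CPM in LNCaP SEL120-34A. For 22Rv1 the values were 49.1, 20.6 and 25 CPM with DMSO and 79.9, 55.8 and 42.8 CPM with SEL120-34A. The groups were apart in LNCaP and overlapped in 22Rv1. The changes of -0.76 ± 0.25 (adjusted p = 0.106) and 0.98 ± 0.32 (adjusted p = 0.057) did not pass, and their difference of -1.74 ± 0.40 did (adjusted p = 0.0265). It was lost in 7 of 22 alternatives. TPM1, a tropomyosin that stabilises actin filaments, was at 182, 209 and 155 CPM in LNCaP DMSO and 125, 138 and 103 CPM in LNCaP SEL120-34A. Levels in 22Rv1 cells were 92.3, 101 and 75.1 CPM with DMSO and 105, 150.2 and 157 CPM with SEL120-34A. The groups of TPM1 did not overlap in either line, and the difference was -1.17 ± 0.27 (adjusted p = 0.0274). By 95% intervals that excluded 0 in both lines, 9 of the 52 genes had changes of opposite sign, namely ADRA2A, CENPN, SPDEF, TPM1, RPS4Y1, RPL7AP30, CENPX, SPCS3 and RAB26.

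**Figure D4:**
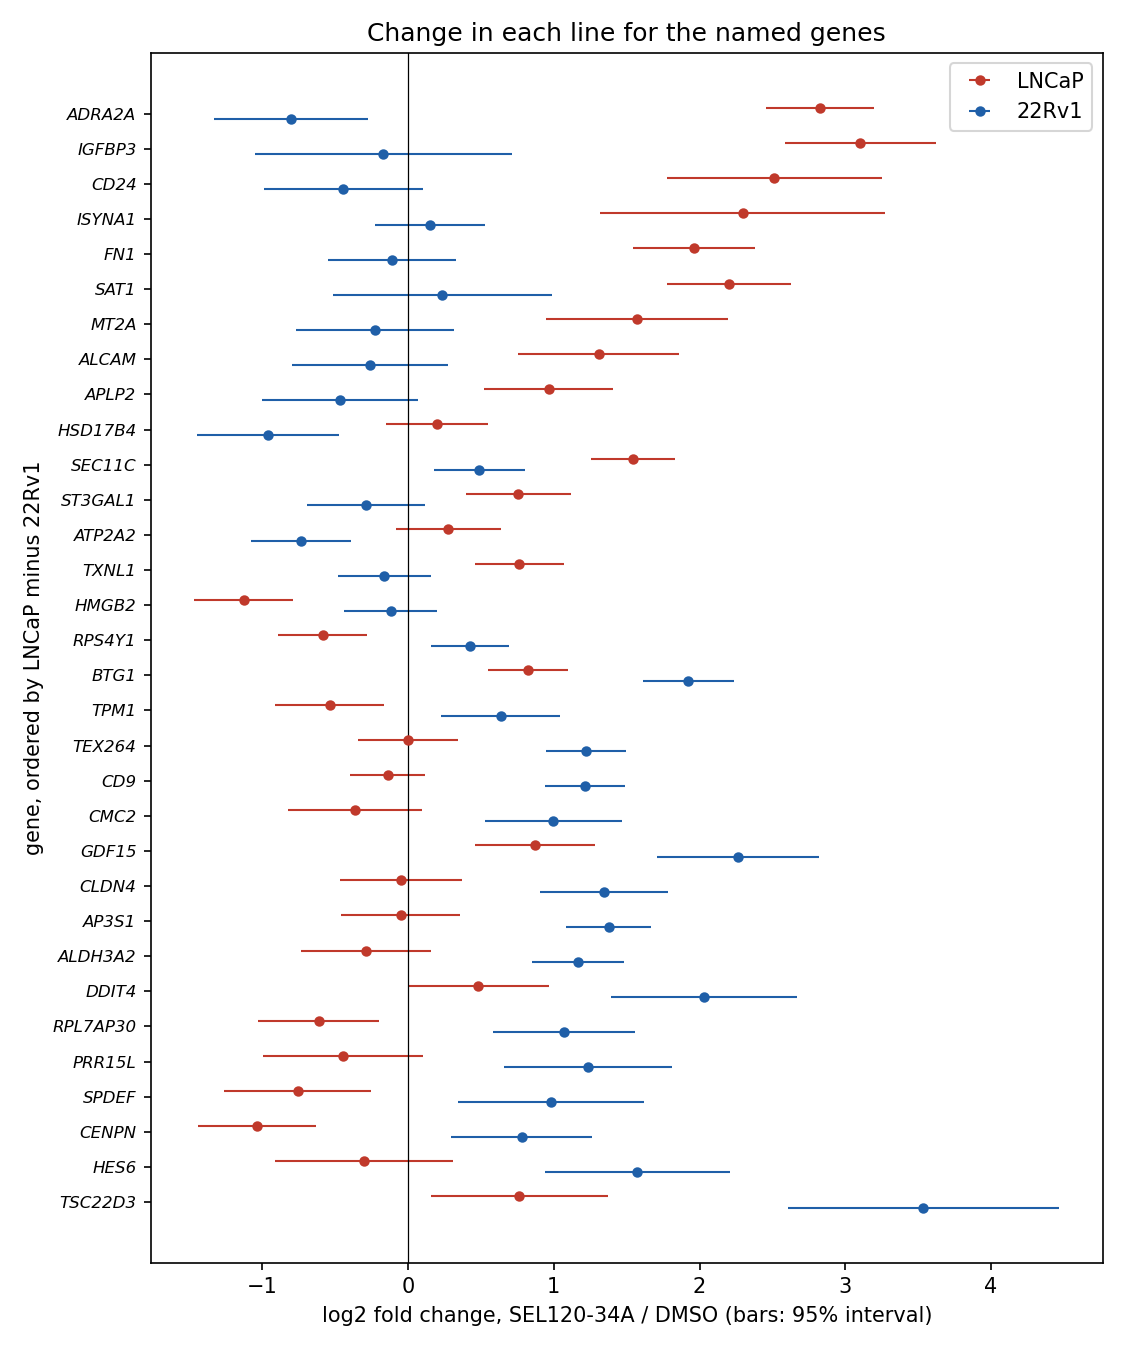
Log2 fold change with SEL120-34A (x axis) in LNCaP (red) and 22Rv1 (blue) for the 32 named genes, ordered by the difference. Bars are 95% intervals from the fit. The interval of 22Rv1 included 0 for IGFBP3, CD24, FN1 and SAT1, among others, and that of LNCaP for HES6, AP3S1, CLDN4, CD9 and TEX264, among others. Both excluded 0 on opposite sides for ADRA2A, CENPN, SPDEF, TPM1, RPS4Y1 and RPL7AP30.

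SEC11C, BTG1 and GDF15 rose in both lines by different amounts. SEC11C (ENSG00000166562.9, chromosome 18, 59139866 to 59158832, plus strand), a catalytic subunit of the signal peptidase, was at 700.1, 466 and 527 CPM in LNCaP DMSO and 2051, 1418 and 1415 CPM in LNCaP SEL120-34A. In 22Rv1 it was at 395, 391 and 415 CPM with DMSO and 515, 627 and 542 CPM with SEL120-34A. It rose by 1.54 ± 0.14 in LNCaP and by 0.49 ± 0.15 in 22Rv1 (adjusted p = 2.75e-10 and 0.0496), a difference of 1.05 ± 0.21 (adjusted p = 0.00514). BTG1, an antiproliferative gene of the BTG and TOB family, went from 439 ± 48.1 to 759 ± 91.5 CPM in LNCaP and from 148 ± 31.9 to 550.1 ± 66.4 CPM in 22Rv1. It rose by 0.83 ± 0.14 and 1.92 ± 0.16 (adjusted p = 0.000112 and 5.65e-12), with a difference of -1.10 ± 0.21 (adjusted p = 0.00256).

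GDF15 (ENSG00000130513.7, chromosome 19, 18374731 to 18389176, plus strand), a secreted cytokine of the TGF-beta superfamily that rises in stressed cells and is a target of p53, was at 476, 689 and 1232 CPM in LNCaP DMSO and 1439, 1409.5 and 1466 CPM in LNCaP SEL120-34A. The 22Rv1 libraries held 86.4, 95.5 and 76.3 CPM with DMSO and 325, 678 and 259.6 CPM with SEL120-34A. It rose by 0.87 ± 0.20 in LNCaP (adjusted p = 0.0103) and by 2.26 ± 0.28 in 22Rv1 (adjusted p = 2.51e-07), and the difference was -1.39 ± 0.34 (adjusted p = 0.0399). It was lost in 12 of 23 alternatives, among them the DESeq2 Wald test (adjusted p = 0.29), limma-trend (adjusted p = 0.162) and 7 fits with 1 library left out, and was -0.88 without LNCaP DMSO library 3 (adjusted p = 0.221). The sign of this difference depends on the scale. In CPM the mean rose by 639 in LNCaP and by 335 in 22Rv1, so the larger gain was in LNCaP, from a control level that was higher there. Among the 32 named genes GDF15 was the only one whose sign differed between the log2 and the CPM scale.

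The starting level differed between the lines for many of these genes. For 24 of the 52, the means with DMSO were at least 2-fold apart. KLK3 shows what this means for the test. It fell by 1.82 ± 0.15 on the log2 scale in LNCaP (adjusted p = 1.35e-11) and was at -0.40 ± 0.47 in 22Rv1 (adjusted p = 0.705), where few counts were found, and the difference of -1.41 ± 0.54 did not pass (adjusted p = 0.291).

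Gene lists were examined for the difference between lines. Of all 7086 genes tested, 52 (0.734%) passed, and the lists were chosen with earlier results of these data known, so the counts are a description. Among the 20 lists, the p53 targets, the surface glycoproteins and the glucocorticoid and progestin list each had 3 members past the threshold, in both directions. These lists had 37, 24 and 16 members tested. Among 37 p53 targets tested, SAT1 was more positive in LNCaP and BTG1 and GDF15 in 22Rv1, while the median change was 0.43 in LNCaP and 0.44 in 22Rv1 against 0.00076 and 0.0025 for all genes tested. In LNCaP 7 of them rose and in 22Rv1 8, against 1.99% and 4.15% of all genes tested, and none fell in either. RPS27L, a p53 target, had a change of 0.39 ± 0.15 in LNCaP and 1.20 ± 0.18 in 22Rv1, and its difference of -0.81 ± 0.23 did not pass (adjusted p = 0.106). Among 24 tetraspanins and surface glycoproteins, CD24 and ALCAM were more positive in LNCaP and CD9 in 22Rv1. CD63, a tetraspanin of late endosomes, rose by 0.49 ± 0.13 and 0.45 ± 0.12 (adjusted p = 0.0287 and 0.0242), with a 95% interval of the difference from -0.32 to 0.41.

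Glucocorticoid- and progestin-responsive genes had 16 members tested, with MT2A more positive in LNCaP and TSC22D3 and DDIT4 more positive in 22Rv1. Their median change was 0.20 in LNCaP and 0.48 in 22Rv1, and 12 of 16 were more positive in 22Rv1, against 3632 of all 7086 genes. In LNCaP 1 member rose and in 22Rv1 4, where 1.99% and 4.15% of all genes tested did. NFKBIA, the inhibitor of NF-kappaB, was at 0.55 ± 0.18 in LNCaP and -0.33 ± 0.15 in 22Rv1, a difference of 0.88 ± 0.24 that did not pass (adjusted p = 0.0736). Among 32 androgen-regulated genes, SPDEF and CENPN passed, both more positive in 22Rv1. STEAP1, a metalloreductase of the prostate cell surface, rose by 0.58 ± 0.12 in LNCaP and 0.74 ± 0.21 in 22Rv1 (adjusted p = 0.00246 and 0.0264), with a 95% interval of the difference from -0.64 to 0.32. The 19 matrix and mesenchymal genes gave FN1 in 1 direction and TPM1 in the other. ITGB5, an integrin subunit, rose by 1.06 ± 0.15 in 22Rv1 (adjusted p = 3.97e-06), and its difference of -1.15 ± 0.31 did not pass (adjusted p = 0.0674).

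For the cell cycle, no S phase gene passed by edgeR (0 of 34, with 6 at an unadjusted p under 0.05, all more positive in 22Rv1). Over all 7086 genes tested, 811 were at an unadjusted p under 0.05, of which 431 were more positive in 22Rv1. The median change was -0.41 in LNCaP and -0.01 in 22Rv1, and 28 of the 34 were more positive in 22Rv1. PCNA, the sliding clamp of DNA polymerase, was at -0.25 ± 0.15 in LNCaP and 0.35 ± 0.15 in 22Rv1, with a difference of -0.60 ± 0.21 (adjusted p = 0.239). Of 45 genes of G2/M phase, HMGB2 passed. The median was -0.46 in LNCaP and -0.23 in 22Rv1, with 7 falls in LNCaP and 4 in 22Rv1, against 0.776% and 1.55% of all genes tested. UBE2C, an enzyme that marks cyclins for destruction, fell by 0.52 ± 0.14 on the log2 scale in LNCaP (adjusted p = 0.0325) and was at 0.02 ± 0.14 in 22Rv1, and the difference of -0.54 ± 0.20 did not pass (adjusted p = 0.261).

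Nuclear-encoded subunits of oxidative phosphorylation also had no member past the threshold (0 of 78, with 14 at an unadjusted p under 0.05, all more positive in 22Rv1, against the 811 of all 7086). The median was -0.02 in LNCaP and 0.18 in 22Rv1, 57 of the 78 were more positive in 22Rv1, and 6 rose in 22Rv1, against 4.15% of all genes tested, with none called in LNCaP. COX5A, a subunit of cytochrome c oxidase, rose by 0.61 ± 0.12 in 22Rv1 (adjusted p = 0.000766) and was at 0.03 ± 0.12 in LNCaP, with a difference of -0.57 ± 0.17 (adjusted p = 0.113). The mitochondrial share of counts also differed between the lines and treatments, as given above, and its part in these values was not tested. No member passed among 25 genes of cholesterol synthesis (3 at an unadjusted p under 0.05, median difference -0.20), 72 MYC targets in ribosome biogenesis (10, -0.04), 24 immediate early genes (3, -0.21), 12 interferon genes (1, 0.09), 4 markers of PC3 cells (1, 0.13) or 4 genes of the Mediator kinase module (0, 0.31). The remaining calls within lists were IGFBP3 among 5 genes of the IGF axis, ADRA2A among 14 of adrenergic, sphingosine and RGS signalling, SAT1 among 16 of polyamine metabolism, HSD17B4 among 13 of androgen metabolism, DDIT4 among 38 ATF4 targets and CLDN4 among 31 keratins and junction genes. Over all genes tested 0.734% passed, and these lists too were chosen with earlier results known.

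**Figure D5:**
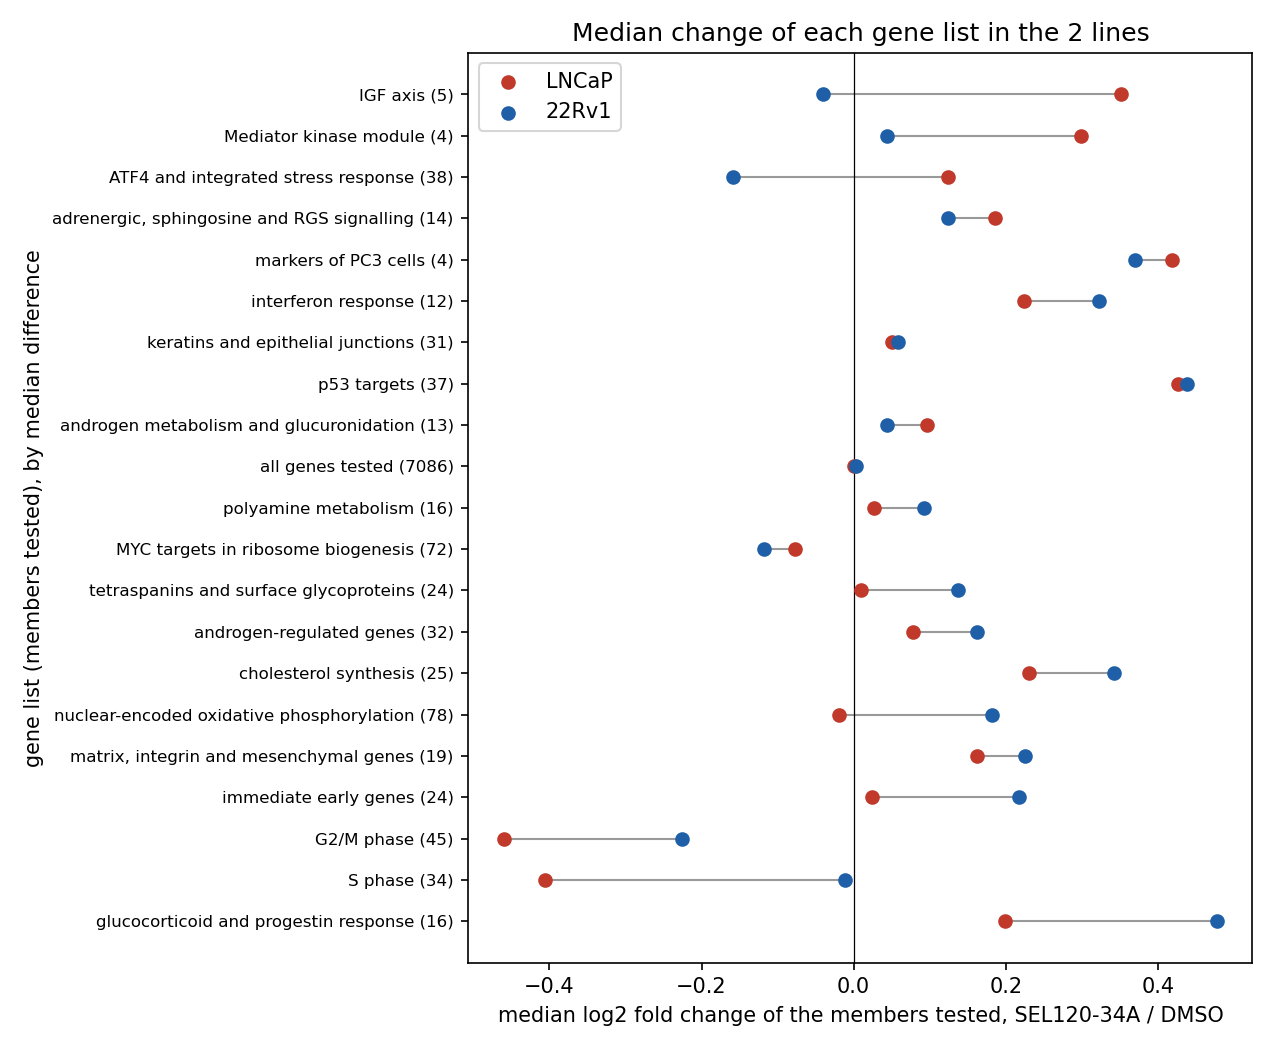
Median log2 fold change with SEL120-34A (x axis) of the members tested in each of the 20 lists and in all genes tested, for LNCaP (red) and 22Rv1 (blue), ordered by the median of the differences. Numbers beside the names are the members tested. The S phase medians were -0.41 and -0.01, and those of the p53 targets 0.43 and 0.44.

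Of the 52 genes, 16 were called in every alternative fit in which they were tested, among them 12 of the 32 named genes. These were ADRA2A, IGFBP3, CD24, FN1 and SEC11C, more positive in LNCaP, and CENPN, RPL7AP30, ALDH3A2, AP3S1, CD9, TEX264 and BTG1, more positive in 22Rv1. Of these, CD24 had an adjusted p in 21 and IGFBP3 in 22 of the 23 alternatives. The calls of DDIT4, ATP2A2, TPM1, PRR15L and RPS4Y1 were lost in 14, 11, 10, 7 and 1 alternatives, and those of KIF22, HSP90AA1, GCLC and GADD45G in 11 to 15.

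The other 20 genes past the threshold, all chosen after their values were seen, had differences from -2.41 (FZD1, a receptor for WNT ligands) to 5.41 (NTS, the neuropeptide neurotensin). NTS had 0, 1 and 0 counts in the LNCaP DMSO libraries and 2, 10 and 16 in LNCaP SEL120-34A, against 4, 14 and 9 in 22Rv1 DMSO and 5, 3 and 2 in 22Rv1 SEL120-34A. At a mean of 5.5 counts its fitted difference depends on the prior count and its size should not be read closely. GCLC, a subunit of the enzyme that limits glutathione synthesis, was at 16.9, 13.1 and 22.4 CPM in LNCaP DMSO and 58.5, 65.1 and 57 CPM in LNCaP SEL120-34A, against 34.5 ± 7.44 and 34 ± 15.4 CPM in 22Rv1. It rose by 1.74 ± 0.32 in LNCaP (adjusted p = 0.000533), and the difference was 1.82 ± 0.46 (adjusted p = 0.045). GADD45G, a small protein of the growth arrest and DNA damage family, was at 5.89, 7.49 and 7.16 CPM in 22Rv1 DMSO and 57.9, 51.5 and 25.7 CPM in 22Rv1 SEL120-34A, against 32.4 ± 10.5 and 39 ± 14.3 CPM in LNCaP. The 22Rv1 values rested on 3, 4 and 6 raw counts with DMSO, near the floor of 3 counts, and 21, 12 and 9 with SEL120-34A. GADD45G rose by 2.66 ± 0.45 in 22Rv1 (adjusted p = 0.000103), and the difference was -2.30 ± 0.57 (adjusted p = 0.04). The size of this rise is therefore uncertain.

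Abundant genes gave smaller differences that passed with libraries that were close together. PCBD1, a cofactor-recycling enzyme, was at 580.4, 589 and 566 CPM in LNCaP DMSO and 538, 531 and 543 CPM in LNCaP SEL120-34A. Its levels in 22Rv1 were 750.0, 683 and 749 CPM with DMSO and 1259.5, 1356 and 1081 CPM with SEL120-34A. The treated libraries lay just below the controls in LNCaP and above them in 22Rv1, and the difference was -0.84 ± 0.17 (adjusted p = 0.00658). DBI, which binds acyl-CoA, had a difference of -1.04 ± 0.19 (adjusted p = 0.00177), and SYNGR2, a vesicle membrane protein, one of -0.93 ± 0.19 (adjusted p = 0.00514). PCBD1, DBI, SYNGR2 and NTS were the other 4 genes called in every alternative in which they were tested.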

How the data were processed

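The 14 libraries were made by BRB-seq, which counts the 3′ ends of barcoded, pooled transcripts. Per the labels and the methods of the study, the authors counted reads with STARsolo against GRCh38.p13 for 62703 genes and deposited the raw counts. In every library 39546 genes were at 0. Whether molecular identifiers were collapsed is not given in the sources used here. The authors also deposited log2 CPM values for 9638 genes, which were recovered to within 5e-14 from the counts by TMM scaling and a prior count of 2. These were used for 1 alternative. Groups came from the labels. It is not stated there whether replicates were separate cultures, so p-values measure the spread between these libraries.

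The 12 libraries were fitted with edgeR 4.0.16 in R 4.3.3 (quasi-likelihood F-test, TMM, a mean for each of 4 groups, filterByExpr), with 8 residual degrees of freedom and a common biological coefficient of variation of 11.1%. P-values were adjusted by Benjamini-Hochberg over 7086 genes, with a threshold of 0.05. Errors of log2 values are standard errors derived from the F statistic, and intervals are 95%. CPM used TMM factors over all 14 libraries, while the PC3 ratios and shares used total counts alone. A count of 0 allows up to 3 counts, which is 3.58 to 12.9 CPM in these 12 libraries, and covers counting error only. The test was checked on simulated data.

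The named genes were, among those called that averaged 20 counts or more, the 14 largest differences in each direction, genes called in both lines with opposite signs and members of the 20 lists, with up to 3 abundant members of a list that did not pass. Genes, lists and rules were chosen with earlier results of these data known. Coordinates are from GENCODE release 44 on GRCh38 and promoters from RefSeq on GRCh38.p14. Alternatives were a replicate block, other scaling (DESeq2 size factors, library totals), other filters, PC3 added, mitochondrial genes removed, thinning, the DESeq2 1.42.0 Wald test, limma-trend (limma 3.58.1), each library left out, stricter thresholds and, chosen after seeing the data, the CPM scale.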

Additional observations from a re-analysis of the deposited data

Results flagged for a closer look

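The response of 52 genes differed between the lines by the test of the difference itself, and 31 of the 32 named genes among them are listed here. Those listed with a more positive log2 change in LNCaP were ADRA2A (3.63), IGFBP3 (3.27), CD24 (2.96), ISYNA1 (2.15), FN1 (2.07), SAT1 (1.97), MT2A (1.79), ALCAM (1.57), APLP2 (1.43), HSD17B4 (1.16), SEC11C (1.05), ST3GAL1 (1.05), ATP2A2 (1.01) and TXNL1 (0.93). Those listed with a more positive log2 change in 22Rv1 were TSC22D3 (-2.77), HES6 (-1.88), CENPN (-1.81), SPDEF (-1.74), PRR15L (-1.68), RPL7AP30 (-1.68), DDIT4 (-1.55), ALDH3A2 (-1.46), AP3S1 (-1.43), CLDN4 (-1.39), GDF15 (-1.39), CMC2 (-1.36), CD9 (-1.36), TEX264 (-1.22), TPM1 (-1.17), BTG1 (-1.10) and HMGB2 (-1.01).

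The PC3 libraries, 1 per arm, stood outside the comparison and have no replicate check. For 5 of the 32 named genes the share of the counts found in the treated PC3 library lay above that given by the total counts (39.0%). This was judged by an exact 95% binomial interval that covers counting error only. How many of all genes tested would pass the same mark is not given here, so these 5 cannot be set against a background. FN1 had 95 counts with DMSO and 252 with SEL120-34A, a log2 ratio of 2.05 after division by total counts, without TMM factors. CD24 had 217 and 263 counts (0.92) and SAT1 193 and 211 (0.77). CD9 had 325 and 261 counts (0.33) and CLDN4 928 and 681 (0.20). FN1, CD24 and SAT1 had risen in LNCaP and not passed in 22Rv1, and CD9 and CLDN4 had risen in 22Rv1 and not passed in LNCaP. For GDF15, with 179 and 83 counts (-0.46), and ALCAM, with 105 and 47 (-0.51), the interval lay below that share, while GDF15 had risen in both lines and ALCAM in LNCaP. The interval of ALCAM ended at 38.9%, just under the 39.0%, and TMM factors (1.041 with DMSO and 1.01 with SEL120-34A) could change its place. That of ST3GAL1, with 148 and 120 counts, began at 38.7%, so the count of 5 could change with these factors too. ADRA2A had 2 counts in each PC3 library and IGFBP3 211 and 116.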

How the results depend on the processing

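No named gene changed sign in any of the 23 alternative fits. Of 721 values of the 32 named genes, 552 kept their call and 169 lost it. On the linear scale the difference of GDF15 turned to 304 CPM. The count of 52 (19 and 33) became 29 (12 and 17) with at least 10 counts in every library, where 2870 genes were tested, 25 (10 and 15) after thinning and 18 (6 and 12) at an adjusted p under 0.01. By the DESeq2 Wald test it was 37, with 11 more positive in LNCaP. Leaving out 1 library gave 24 to 57 (8 to 22 and 15 to 36). Counts lower than the full one by over 1.5 times were 24 and 27 without LNCaP SEL120-34A library 1 or 2, 34 without 22Rv1 DMSO library 3 and 32 and 26 without 22Rv1 SEL120-34A library 1 or 2. Genes changed in LNCaP (196) became 122 with at least 10 counts, 104 after thinning, 101 by DESeq2, 114 by limma-trend and 77 at an adjusted p under 0.01, and 87 to 239 with 1 library left out, with a change of over 1.5 times without LNCaP DMSO library 2 or 3 or LNCaP SEL120-34A library 1 or 2. Genes changed in 22Rv1 (404) became 260 with no filter, 255 by DESeq2 and 169 at an adjusted p under 0.01, and 158 to 446 with 1 library left out, where the same held for 22Rv1 DMSO library 2 or 3 and 22Rv1 SEL120-34A library 1 or 2. Genes with opposite calls in both lines were 9 in place of 2 by unadjusted p in each line. The causes were not tested.

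Correlations of the deviations of same-numbered libraries from their group means were 0.26, -0.0033 and 0.38 in LNCaP and 0.0038, -0.032 and 0.12 in 22Rv1. They were over 0.1 in 3 of 6 pairs, which also correlated best with their own number, and not in the other 3. The labels name no shared batch, so the numbers were not taken as pairs. With a replicate block shared by both lines 68 genes passed, and with a replicate block within each line 77, of which 31 were more positive in LNCaP. With totals from 246063 counts, smaller differences could be missed.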

Other observations

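Subunits of the signal peptidase, the enzyme that cuts signal peptides in the endoplasmic reticulum, were examined after SEC11C had been seen. The enzyme holds either SEC11A or SEC11C as its catalytic subunit. SEC11A was at 313 ± 43.2 and 276 ± 23.9 CPM in LNCaP DMSO and SEL120-34A and at 318 ± 41.2 and 529.9 ± 80.4 CPM in 22Rv1 (mean ± SD, n = 3). It rose by 0.75 ± 0.14 on the log2 scale in 22Rv1 (adjusted p = 0.000615, edgeR) and was at -0.16 ± 0.15 in LNCaP, a difference of -0.91 ± 0.21 (adjusted p = 0.0264), opposite in sign to the 1.05 of SEC11C. SPCS3, an accessory subunit, had a difference of -1.01 ± 0.25 (adjusted p = 0.0336), with neither line called. SPCS2 rose by 0.81 ± 0.20 in 22Rv1 (adjusted p = 0.00976), and its difference of -0.69 ± 0.32 did not pass (adjusted p = 0.407). SPCS1 had a difference of -0.27 ± 0.17 (adjusted p = 0.557). SRP9, a protein of the signal recognition particle that brings ribosomes to the same membrane, rose by 0.70 ± 0.13 in 22Rv1 (adjusted p = 0.000277), with a difference of -0.73 ± 0.18 (adjusted p = 0.0418). The differences of SEC11A, SPCS3 and SRP9 were lost in 7, 13 and 12 of 23 alternatives, and that of SEC11C in none.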
